A study of Mus musculus with 10 samples.

Results

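Trophoblast-associated transcription was followed in mouse embryonic stem cells (ESCs) of the E14 line in which SOX2, a pluripotency factor, is fused to FKBP, a degron through which dTAG-13, a small molecule, brings about its degradation. The genes were Cdx2, Eomes, Gata3, Tfap2c, Hand1, Krt8 and Krt18, chosen by symbol, and a gene counted as measured where its transcribed unit (TU, a stretch of continuous nascent transcription on 1 strand) held more than 10 fragments in at least 2 of the 10 libraries. Of the 7 genes, 4 met this rule (Tfap2c, Gata3, Eomes and Krt8), among 28459 TUs tested and 40779 listed. Cdx2 and Krt18 have a TU with fewer fragments, and Hand1 has no TU. All 5 groups carried the SOX2-FKBP genotype and grew with LIF and inhibitors of MEK and GSK3. NT cells received DMSO, and the others 500 nM dTAG-13 for 0.5, 1, 2 or 6 hours post depletion (hpd), each with 2 replicates. In TT_chem_seq, new RNA is labelled with 4-thiouridine, here at 2 mM for 10 min, then fragmented, captured and sequenced. Cells without the tag that were given dTAG-13 were not analysed here.

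The trophectoderm is the outer epithelium of the blastocyst and gives rise to the trophoblast of the placenta. CDX2, EOMES, GATA3, TFAP2C and HAND1 are transcription factors of this lineage or of its derivatives, while KRT8 and KRT18 are partner keratins that form filaments in simple epithelia. Long-term loss of SOX2 is known to turn ESCs toward trophectoderm, and the comparison asks whether nascent transcription of these genes moves that way within 6 h. At 6 hpd, none of the 4 tested genes was called higher than NT, where 6.61% of all TUs were, and Krt8 and Tfap2c were lower, where 9.2% were. With 4 genes, a count of 0 higher is near that background. Of these 4, Eomes was the exception in direction, with a rise at 0.5, 1 and 2 hpd that had mostly gone by 6 hpd. Cdx2 and Krt18, left out by the rule, had ratios to NT of 10.9 and 2.13 at 6 hpd on few fragments. Neither was called in a fit without a count filter. Of 14 other trophoblast genes tested, from a list chosen with earlier results known, 6 were called up and 1 down at 6 hpd (6.61% and 9.2% of all TUs).

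Library totals were between 11131490 and 25854106 fragments. The libraries are of bulk cells, so fewer cells of a type and less RNA per cell cannot be told apart. Sox2 itself was transcribed at 243 and 283 CPM (fragments per 1000000 of the scaled library size) in NT and at 271 and 278 CPM at 6 hpd. The degron acts on the protein, so these values do not check the depletion. All 13 listed stem cell markers were tested, including Pou5f1, which encodes OCT4 and was at 151 and 166 CPM in NT. Of 24 other trophoblast genes listed, 8 had no TU, among them Elf5, Gcm1, Tpbpa and Krt7.

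On mm10, the Tfap2c TU lies at chr2:172546200-172562269 on the plus strand and covers 96.0% of the RefSeq gene, exons and introns together. The Eomes TU lies at chr9:118478207-118488469 on the plus strand and the Krt8 TU at chr15:101994391-102004253 on the minus strand, covering 99.7% and 98.8% of their genes. The Krt18 TU (chr15:102028245-102033102, plus strand) starts 24.0 kb from the start of the Krt8 TU. Those of Gata3 (chr2:9856473-9860452, minus strand) and Cdx2 (chr5:147300335-147304254, minus strand) cover 10.9% and 52.8% of their genes, from within the gene to past its annotated end, so neither TU includes the start of transcription. Hand1 is annotated at chr11:57828713-57832147.

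The promoters of Eomes and Krt8 are shown because, among the 4 tested genes, these moved furthest and in opposite directions. Each is the RefSeq sequence of GRCm38.p6 (the assembly of mm10) from 250 bases before the annotated start to 50 after it, 5′ to 3′ on the strand of the gene, at chr9:118477939-118478238 for Eomes and chr15:102004293-102004592 for Krt8. Capitals mark exact matches, on either strand, to the motifs searched.
Eomes: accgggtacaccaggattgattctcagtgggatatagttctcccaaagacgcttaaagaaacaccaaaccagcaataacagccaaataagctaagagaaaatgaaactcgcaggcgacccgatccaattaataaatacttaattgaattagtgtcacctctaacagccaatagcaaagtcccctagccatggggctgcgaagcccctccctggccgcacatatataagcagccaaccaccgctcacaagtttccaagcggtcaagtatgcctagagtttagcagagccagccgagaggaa
Krt8: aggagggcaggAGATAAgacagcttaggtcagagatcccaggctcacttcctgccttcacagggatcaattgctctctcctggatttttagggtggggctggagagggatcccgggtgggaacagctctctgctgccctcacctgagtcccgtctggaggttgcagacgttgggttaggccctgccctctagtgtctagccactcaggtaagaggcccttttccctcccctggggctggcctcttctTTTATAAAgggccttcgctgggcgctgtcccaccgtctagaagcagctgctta
For SOX factors the core CATTGT was searched, for TEAD factors GGAATG, for AP-2 factors GCCNNNGGC and for GATA factors AGATAA. The core promoter element of TBP was searched as TATAAA, and the box of SP and KLF factors as GGGCGG. Eomes held no exact match to any of these runs of letters, and variants of them were not searched. Krt8 held 1 AGATAA and 2 overlapping matches to TATAAA, read on opposite strands and spanning the annotated start. In all 32851 promoters of the table, 12.6% held CATTGT, 14.7% GGAATG, 16.6% GCCNNNGGC, 11.2% AGATAA, 13.6% TATAAA and 35.7% GGGCGG. Sequences were found for 5 of the 7 genes (Gata3, Cdx2, Eomes, Krt8 and Krt18). GCCNNNGGC was found in 3 of these 5, with 3 matches in Gata3, 1 in Cdx2 and 1 in Krt18, and GGGCGG only in Gata3, with 2 matches. No promoter of the 5 held CATTGT or GGAATG. A match is a run of letters and not a site known to be bound.

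Levels of different genes were compared as CPM per kb of TU. In NT, Tfap2c stood highest at 2.75 and 2.29 CPM per kb, above 84.3% of the 14997 tested TUs with a gene symbol. Krt8 followed at 0.512 and 0.884 and Gata3 at 0.406 and 0.712 CPM per kb, and these neighbours in the order overlapped. Eomes stood at 0.210 and 0.262, Krt18 at 0.0554 and 0.0748, and Cdx2 at 0.0172 and 0 CPM per kb. For scale, Pou5f1 stood at a mean of 3.18 CPM per kb. At 2 hpd the order had changed, with Eomes second at 0.744 and 0.894 CPM per kb and Krt8 below Gata3 at 0.154 and 0.207, and the libraries of neighbouring genes did not overlap. At 6 hpd, Eomes (0.308 and 0.340), Gata3 (0.300 and 0.234) and Krt8 (0.157 and 0.189 CPM per kb) had separate ranges. Those of Krt8, Krt18 and Cdx2 overlapped in turn.

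**Figure D1:**
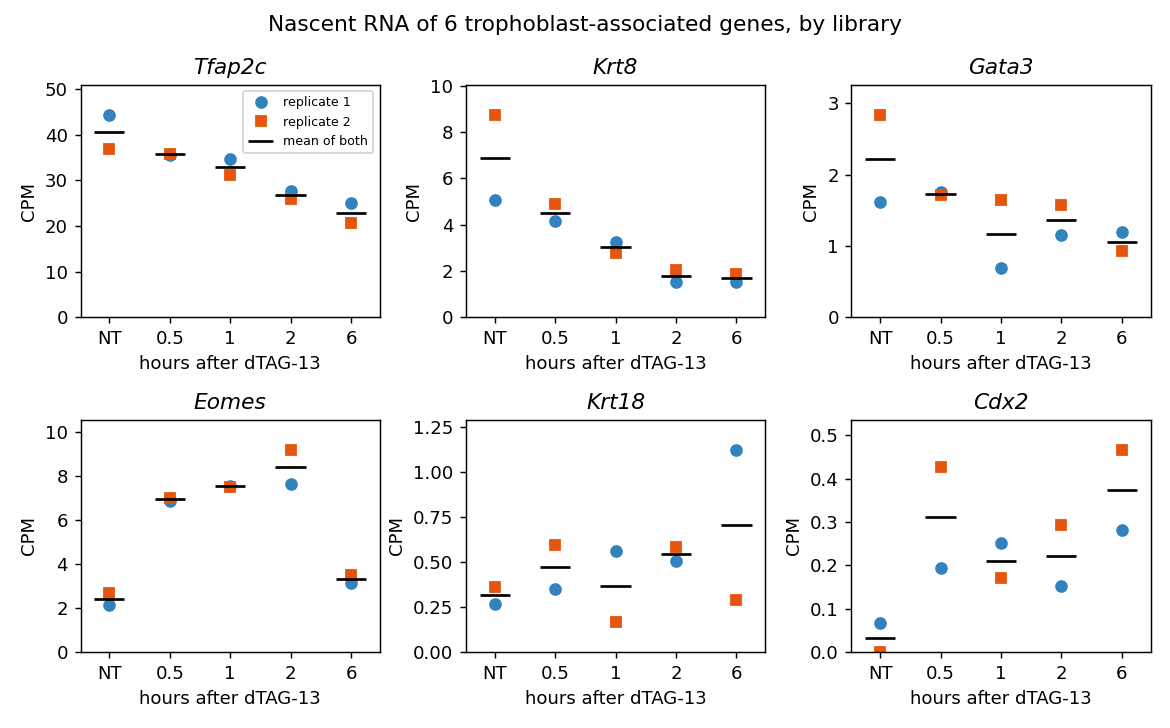
CPM (y axes, each from 0) of the 6 genes with a TU in NT and at 0.5, 1, 2 and 6 h of dTAG-13 (x axes), with 1 point per library and a line at the mean of both. Tfap2c and Krt8 step down, Eomes is high at 0.5 to 2 h and near NT at 6 h, and Krt18 and Cdx2 rest on 16 fragments per library or fewer.

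Each time point was compared with NT, and all 4 comparisons share the NT libraries. A TU was called at an adjusted p under 0.05 over all TUs tested. At 0.5 hpd, edgeR called 1 of the 4 genes higher and none lower, where 0.527% of all TUs were called up and 0.787% down. At 1 hpd, 1 was higher and 1 lower (all TUs 2.15% up, 3.61% down), and at 2 hpd 1 was higher and 2 were lower (4.26% up, 5.57% down). At 6 hpd, none was higher and 2 were lower (6.61% up, 9.2% down). The counts of 0 were also 0 by DESeq2, and at an unadjusted p under 0.05 they became 1 lower at 0.5 hpd (Krt8) and stayed 0 higher at 6 hpd. The median log2 fold change of the 4 genes was -0.27, -0.60, -0.65 and -0.95 at 0.5, 1, 2 and 6 hpd, beside medians of -0.02, -0.04, -0.04 and -0.04 over all TUs. The joint test of the 4 time points called Eomes, Krt8 and Tfap2c, where 12.3% of all TUs were called, and Gata3 had an adjusted p of 0.302. The labels do not say that replicates came from separate cultures, so p-values measure the spread between these libraries, which may be technical.

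Eomes encodes a T-box factor that trophoblast stem cells need and that also acts in early mesoderm and endoderm. Its TU was at 2.15 and 2.69 CPM in NT, 6.87 and 7.01 after 0.5 h, 7.53 and 7.52 after 1 h, 7.63 and 9.18 after 2 h, and 3.16 and 3.49 after 6 h. Every library at 0.5, 1 and 2 hpd stood above those at 6 hpd, and these above both NT libraries. The mean rose 2.86-fold at 0.5 hpd (log2 fold change 1.52 ± 0.21, SE, n = 2 per group, adjusted p = 0.00145), from 69 fragments in both NT libraries to 258. At 1 hpd the log2 fold change was 1.64 ± 0.20 (adjusted p = 0.000182) and at 2 hpd 1.79 ± 0.20 (adjusted p = 3.98e-05). At 6 hpd it was 0.47 ± 0.22 (adjusted p = 0.177), which did not pass the test.

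The fall of Eomes between 2 and 6 hpd was tested directly, and its log2 fold change was -1.33 ± 0.19 with an adjusted p of 0.00316, where 0.777% of all TUs were called. From 1 to 6 hpd it was -1.17 ± 0.19 (adjusted p = 0.00211, with 4.88% of all TUs called). Between 0.5 and 1 hpd and between 1 and 2 hpd, none of the 4 genes was called, where 0.109% and 0.218% of all TUs were. DESeq2 also called 0 in both intervals. At an unadjusted p under 0.05, 0 of the 4 differed in the earlier interval and 2 were lower in the later one, Tfap2c and Krt8, with log2 fold changes of -0.29 and -0.77. Without 6 hpd replicate 1, the fall of Eomes from 2 hpd was -1.25 (adjusted p = 0.0627). The rise at 0.5, 1 and 2 hpd was called with each library left out in turn, with log2 fold changes from 1.36 to 1.96.

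Krt8 encodes a keratin of simple epithelia and of the trophectoderm. It was at 5.05 and 8.72 CPM in NT, 4.18 and 4.87 after 0.5 h, 3.26 and 2.79 after 1 h, 1.52 and 2.05 after 2 h, and 1.55 and 1.86 after 6 h. The NT libraries differed most from each other, and every library after depletion lay below both. The log2 fold change was -0.62 ± 0.25 after 0.5 h (adjusted p = 0.406), -1.18 ± 0.27 after 1 h (adjusted p = 0.0144), -1.95 ± 0.28 after 2 h (adjusted p = 0.00036) and -1.996 ± 0.29 after 6 h (adjusted p = 0.000249). At 6 hpd this left 25.1% of the NT level. The 1 hpd call did not hold without NT replicate 2 (-0.72, adjusted p = 0.257), 1 hpd replicate 1 (-1.30, adjusted p = 0.0753) or 1 hpd replicate 2 (-1.07, adjusted p = 0.149), while those at 2 and 6 hpd held with each library left out. Keratin genes can have near-identical copies elsewhere in the genome. The filter on mapping quality removes reads that fit several places equally well, so the level of Krt8 may be understated, which was not tested.

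Tfap2c encodes an AP-2 factor that acts in trophoblast, and ESCs also express it. It was at 44.2 and 36.8 CPM in NT, 35.5 and 35.8 after 0.5 h, 34.6 and 31.3 after 1 h, 27.8 and 25.9 after 2 h, and 25.1 and 20.7 after 6 h. Each group lay below the one before it without overlap. Against NT the log2 fold change was -0.19 ± 0.12 after 0.5 h (adjusted p = 0.744), -0.30 ± 0.13 after 1 h (adjusted p = 0.215), -0.59 ± 0.13 after 2 h (adjusted p = 0.0069) and -0.83 ± 0.13 after 6 h (adjusted p = 0.000449). The call at 2 hpd did not hold without NT replicate 1 (-0.46, adjusted p = 0.0688). From 1 to 6 hpd it fell by 0.53 on the log2 scale (SE 0.13, adjusted p = 0.0279), a call that did not hold without 1 hpd replicate 1 (adjusted p = 0.206), 1 hpd replicate 2 (0.0964) or 6 hpd replicate 2 (0.238).

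Gata3 encodes a GATA factor that acts beside CDX2 in trophectoderm. Only its 3′ stretch was counted, with 11 to 45 fragments per library. It was at 1.62 and 2.83 CPM in NT, 1.76 and 1.71 after 0.5 h, 0.690 and 1.65 after 1 h, 1.16 and 1.58 after 2 h, and 1.19 and 0.932 after 6 h. Both 6 hpd libraries lay below both NT libraries, but the NT libraries were far apart. The log2 fold change was -0.35 ± 0.37, -0.90 ± 0.39, -0.70 ± 0.38 and -1.06 ± 0.41 at 0.5, 1, 2 and 6 hpd, and none was called (adjusted p = 0.877, 0.243, 0.28 and 0.0901). With libraries left out in turn, these values ranged from -0.70 to 0.11, -1.67 to -0.42, -1.06 to -0.25 and -1.41 to -0.59. Each value in the full fit was negative, and at these SEs a small change of Gata3 in either direction was not detectable.

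**Figure D2:**
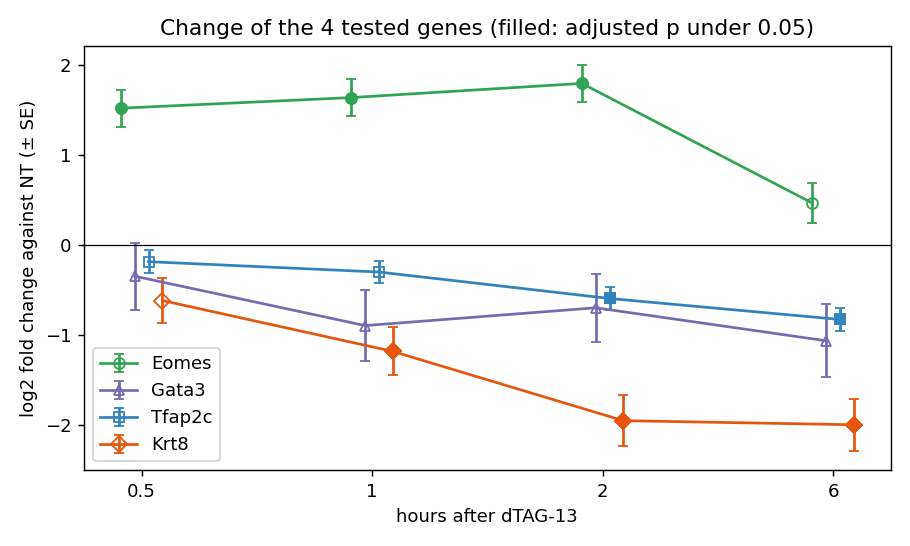
Log2 fold change against NT (y axis, bars ± SE, 2 libraries per group) of the 4 tested genes at 0.5, 1, 2 and 6 h of dTAG-13 (x axis, time points evenly spaced), filled where the adjusted p was under 0.05. Eomes is above 0 throughout and filled at the first 3 time points, Krt8 and Tfap2c fall to -1.996 and -0.83 at 6 h, and Gata3 is never filled.

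Cdx2, a homeobox factor that specifies trophectoderm, was close to the limit of detection. It held 1 and 0 fragments in NT, 5 and 5 after 0.5 h, 4 and 3 after 1 h, 3 and 5 after 2 h, and 4 and 8 after 6 h. The count of 0 in NT replicate 2 allows up to 0.218 CPM, the value of 3 fragments there. All 8 libraries after depletion held more fragments than either NT library, with 37 fragments in all against 1. The ratio to NT was 7.67 at 0.5 hpd (95% exact interval 1.09 to 333), 5.98 at 1 hpd (0.768 to 269), 6.21 at 2 hpd (0.832 to 275) and 10.9 at 6 hpd (1.62 to 467). These intervals cover counting error only, and their width comes from the single NT fragment. In the fit without a count filter, Cdx2 was not called at any time point (adjusted p = 0.442, 0.356, 0.251 and 0.0552).

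Krt18, the partner keratin of Krt8, held 4 and 5 fragments in NT, 9 and 7 after 0.5 h, 9 and 3 after 1 h, 10 and 10 after 2 h, and 16 and 5 after 6 h. The 6 hpd value rests on replicate 1, as replicate 2 held as many fragments as NT replicate 2. The ratio to NT was 2.13 at 6 hpd (95% exact interval 0.933 to 5.27), and without a count filter its adjusted p there was 0.331. Krt8 and Krt18 were thus measured in opposite directions from NT, but Krt18 was not called and a difference between them was not tested.

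Beside these 7 genes, 24 other trophoblast genes were read in the same fit. The list was chosen with earlier results of these data known, so its counts are no independent check of the 7 genes. Of the 24, 16 had a TU and 14 were tested. At 0.5 hpd edgeR called 2 up and none down, at 1 hpd 5 up and 1 down, at 2 hpd 6 up and none down, and at 6 hpd 6 up and 1 down. DESeq2 also called none down at 0.5 and 2 hpd, where 0 and 1 were lower at an unadjusted p under 0.05. The count up at 0.5 hpd was 4 by DESeq2, or without either 2 hpd replicate, 1 without either 6 hpd replicate, and 0 without either NT replicate or 0.5 hpd replicate 2. At 1 hpd it was 3 without either NT replicate and 2 without 1 hpd replicate 2, while at 6 hpd it was 5 to 6 with libraries left out in turn. Of all TUs, 0.527%, 2.15%, 4.26% and 6.61% were called up and 0.787%, 3.61%, 5.57% and 9.2% down at these times. The median log2 fold change of the 14 was 0.20, 0.27, 0.39 and 0.50, beside -0.02, -0.04, -0.04 and -0.04 over all TUs. The summed level of the 16 was 294 and 329 CPM in the NT libraries. Most of its rise came early, with libraries spanning 391 to 417 CPM by 0.5 h, then 441 to 449 CPM by 1 h. The sum was lower again by 2 h (402 to 407 CPM), and its range by 6 h was 435 to 455 CPM. Tead4 contributed most to these sums, giving 178 and 154 CPM for NT. It gave 258 and 259 CPM for 1 h, its only call, but 185 and 192 CPM for 6 h.

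The strongest by p at 6 hpd was Fgfr2, an FGF receptor of trophoblast progenitors and of primitive endoderm. It was at 12.4 and 9.59 CPM in NT, 11.9 and 11.8 after 0.5 h, 13.2 and 11.3 after 1 h, 20.3 and 17.4 after 2 h, and 42.8 and 36.3 after 6 h. Both 2 hpd libraries and both 6 hpd libraries lay above all earlier ones, and the log2 fold change at 6 hpd was 1.84 ± 0.15 (adjusted p = 1.55e-06). Id2, an inhibitor of bHLH factors, rose by 2.24 ± 0.25 (log2) after 6 h (adjusted p = 2.26e-05) and was called from 0.5 hpd on. Plet1, a surface protein of trophoblast progenitors, rose by 1.55 ± 0.15 (adjusted p = 6.44e-06) and Peg10, an imprinted gene needed in placenta, by 1.41 ± 0.16 (adjusted p = 3.41e-05), both called from 2 hpd on.

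Wnt7b, a WNT ligand, was called at all 4 time points, with 1.75 ± 0.16 at 2 hpd and 1.39 ± 0.16 at 6 hpd, and Elf3, an ETS factor of epithelia, at 1 and 6 hpd (0.69 ± 0.16 and 0.77 ± 0.16). Gata2 was called at 1 and 2 hpd (1.13 ± 0.26 and 0.99 ± 0.26) and Tead4, the TEAD factor upstream of Cdx2 in the embryo, at 1 hpd only (0.64 ± 0.11). Gata2 at 1 hpd was not called without NT replicate 1, 1 hpd replicate 1 or 1 hpd replicate 2, and at 2 hpd not without either NT replicate or 2 hpd replicate 2. Elf3 was not called without NT replicate 2 at either time point (adjusted p = 0.22 and 0.0853), nor at 1 hpd without 1 hpd replicate 2. Scaled by totals, Elf3 at 1 hpd, Gata2 at 2 hpd and Id2 at 0.5 hpd were not called (adjusted p = 0.0655, 0.0628 and 0.0746), nor was Id2 at 0.5 hpd among TUs averaging at least 50 fragments (0.0641). At 0.5 hpd, neither Id2 nor Wnt7b was called without either NT replicate or 0.5 hpd replicate 2, and Id2 was not called at 0.5 hpd without either 6 hpd replicate, nor at 1 hpd without either NT replicate or 1 hpd replicate 2.

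Against this, Tfap2a fell at 1 hpd (-1.54 ± 0.36, adjusted p = 0.0179, not called without NT replicate 2 or either 1 hpd replicate), and Msx2, a homeobox gene, was the 1 gene called lower at 6 hpd (adjusted p = 0.00697). Msx2 held 15 and 11 fragments in NT and 2 and 1 at 6 hpd, and was not called without 6 hpd replicate 2 (adjusted p = 0.0858). Bmp4, Ets2, Ascl2 and Arid3a were not called at any time point.

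**Figure D3:**
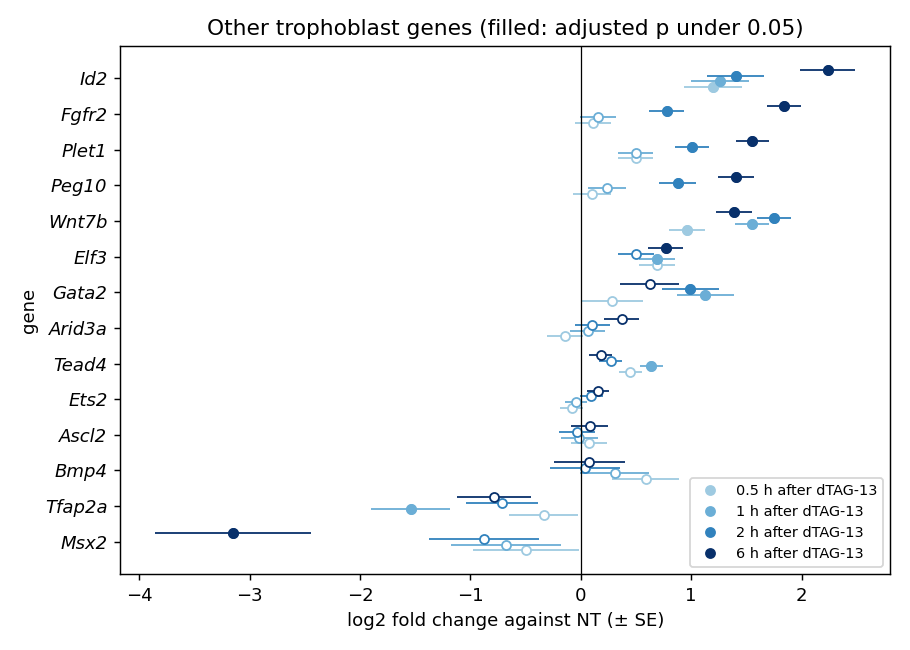
Log2 fold change against NT (x axis, bars ± SE, 2 libraries per group) of the 14 tested other trophoblast genes (y axis) at 4 time points, filled where the adjusted p was under 0.05. At 6 h, Id2, Fgfr2, Plet1, Peg10, Wnt7b and Elf3 are filled above 0 and Msx2 below it.

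The trophectoderm is an epithelium, so 15 genes of junctions and ion or water transport were read beside the keratins. All had a TU and 14 were tested. At 0.5 hpd edgeR called none (4 higher at an unadjusted p under 0.05, 1 by DESeq2). It called 2 up at 1 hpd, 1 at 2 hpd and 2 at 6 hpd, and none down, with 1 lower at an unadjusted p under 0.05 at 1, 2 and 6 hpd and none by DESeq2. Of all TUs, 2.15%, 4.26% and 6.61% were called up at 1, 2 and 6 hpd, so that 1 of 14 at 2 hpd is near the background. With libraries left out in turn, the count up was 0 to 3 at both 1 and 2 hpd, with 0 at each without NT replicate 2 or replicate 1 of that time point. The count up at 6 hpd was 5 with only the libraries compared in the fit or without either 2 hpd replicate, 4 by DESeq2 or without 0.5 hpd replicate 2, and 1 without either NT replicate, without 6 hpd replicate 2 or among TUs averaging at least 50 fragments. With only the libraries compared it was 2, 4 and 0 at 0.5, 1 and 2 hpd, and scaled by totals 1 at both 0.5 and 1 hpd. The list had a median log2 fold change of 0.15 after 6 h, beside -0.04 over all TUs. Dsp, which encodes the desmosomal plaque protein that anchors keratin filaments, rose by 0.79 ± 0.12 (log2) after 6 h (adjusted p = 0.00052), and Pkp2, another desmosomal gene, by 0.47 ± 0.14 (adjusted p = 0.0323, not called without either NT replicate or 6 hpd replicate 2, when scaled by totals, or among TUs averaging at least 50 fragments). Cdh1, the epithelial cadherin that ESCs also express, was called at 1 and 2 hpd (0.61 ± 0.12 and 0.48 ± 0.11) but not at 6 hpd, and at neither without NT replicate 2 or replicate 1 of that time point, nor at 2 hpd with only the libraries compared (adjusted p = 0.076). Atp1b1, a subunit of the sodium pump that drives blastocoel formation, had the smallest p among the lower ones (-0.29 ± 0.12, adjusted p = 0.0981). It was called lower when scaled by totals (-0.39, adjusted p = 0.0364) and with only the libraries compared (-0.32, adjusted p = 0.0235).

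Eomes, Gata3 and several genes above also act in other early lineages. Of 10 mesoderm markers, 5 had a TU, and T and Mesp1 had none. Their summed level was 25.8 and 32.1 CPM in NT, 16.6 and 20.05 at 2 hpd and 16.7 and 17.5 at 6 hpd, when edgeR called 2 of the 5 down (9.2% of all TUs, and 1 by DESeq2) and none up (none by DESeq2 or at an unadjusted p under 0.05). Gsc had the smallest p there (-0.92 ± 0.19, adjusted p = 0.00424), and without NT replicate 2 or 6 hpd replicate 2 none of the 5 was called. Of 13 primitive endoderm markers, 10 had a TU, 9 were tested, and Foxa2 had no TU. Their summed level was 180 and 182 CPM in NT, 227 and 236 at 2 hpd and 258 and 262 at 6 hpd, when 3 of the 9 were called up and 1 down (6.61% and 9.2% of all TUs). Dab2, an endocytic adaptor of this lineage, rose by 1.92 ± 0.15 on the log2 scale (adjusted p = 5.78e-07), and Lama1, a laminin chain, was the 1 lower. Lama1 had fallen further before, its log2 values against NT being -0.70 ± 0.11, -1.04 ± 0.11 and -0.92 ± 0.11 after 0.5, 1 and 2 h (adjusted p = 0.00387, 3.62e-05 and 5.39e-05), and the calls at 1 and 2 hpd held with each library left out. At 6 hpd it was -0.36 ± 0.11 (adjusted p = 0.033), a call that DESeq2 did not make and that did not hold without any single library of NT, 1 hpd or 6 hpd. Both lists moved over the time in which Eomes rose and fell, and their part in the result was not tested.

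Around the 6 TUs, 8 others overlapped or lay within 10 kb, and the 1 of them that was tested was the antisense TU across the start of Tfap2c (chr2:172539578-172551173, minus strand). Its log2 fold change was -0.11, -0.36, -0.36 and -1.11 at 0.5, 1, 2 and 6 hpd, and it was not called (adjusted p = 0.0704 at 6 hpd, and 0.0488 without NT replicate 2). A window of 120 kb was then read, chosen after its values were seen. Within it, Platr11, a noncoding gene on the opposite strand with 72.1 kb between it and Eomes, was at 17.03 and 19.1 CPM in NT, 3.59 and 3.68 after 0.5 h, 1.51 and 1.37 after 1 h, 0.859 and 0.994 after 2 h and 0.492 and 0.349 after 6 h. It was lower at each time point while Eomes was higher at the first 3 of them. Another tested TU, extragenic, on the strand of Eomes and 117 kb before it (chr9:118355239-118361115), was not called, with log2 values against NT of 1.09 ± 0.54, 1.56 ± 0.52, 1.61 ± 0.51 and 0.55 ± 0.59 (adjusted p = 0.571, 0.106, 0.0588 and 0.574). Golga4, 17.8 kb past the end of the Eomes TU, was not called at any time point, with log2 fold changes of -0.06, -0.02, 0.09 and 0.03, whose signs changed under another scaling at 1, 2 and 6 hpd.

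Past the end of the Tfap2c TU, Gm36038, a gene model on the same strand 14.6 kb away, was at 167 and 170 CPM in NT, 111 and 117 after 0.5 h, 69.5 and 65.9 after 1 h, 43.6 and 44.5 after 2 h and 28.3 and 22.7 after 6 h. Its log2 fold change was -0.57 ± 0.11, -1.32 ± 0.11, -1.94 ± 0.11 and -2.73 ± 0.12, called at each time point. An extragenic TU (chr2:172626482-172654644, plus strand) beyond it changed by -0.09, -0.66, -1.51 and -2.31, called from 1 hpd on. The measured decrease of Tfap2c was smaller than both at 1, 2 and 6 hpd, and at 0.5 hpd (-0.19) than that of Gm36038 only. Tfap2c was not called at 0.5 or 1 hpd, and these differences were not tested. Of the 11 tested TUs within 120 kb of Tfap2c, 3 were called lower and 1 higher at 6 hpd (9.2% and 6.61% of all TUs). In the same window, 1 of 3 was called at 6 hpd around Eomes, 0 of 10 around Cdx2, 0 of 5 around Krt8, 0 of 1 around Gata3 and 1 of 7, Krt8 itself, around Krt18. The third that was lower, Gm35982, a gene model on the opposite strand, was at 1.95 and 2.83 CPM in NT and at 0 and 0.233 CPM at 6 hpd, and it was called from 1 hpd on (at 1 hpd not without NT replicate 2 or either 1 hpd replicate). The 1 that was higher, an extragenic TU within the span of Gm36038 on the opposite strand (chr2:172606572-172614346), was at 0.269 and 0.291 CPM in NT and 0.983 and 0.757 CPM at 6 hpd. It rose by 1.70 ± 0.50 (log2) after 2 h and 1.60 ± 0.52 after 6 h (adjusted p = 0.0438 and 0.0482), and neither call held without either replicate of NT, of 1 hpd or of its own time point, the call at 2 hpd not without either 6 hpd replicate. Both calls were also lost when scaled by totals, without a count filter and with only the libraries compared, and DESeq2 did not make the call at 6 hpd (adjusted p = 0.187). The call of Gm36038 at 0.5 hpd did not hold without any single library of NT or 0.5 hpd, and that of the extragenic TU at 1 hpd not without NT replicate 2 or either 1 hpd replicate.

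**Figure D4:**
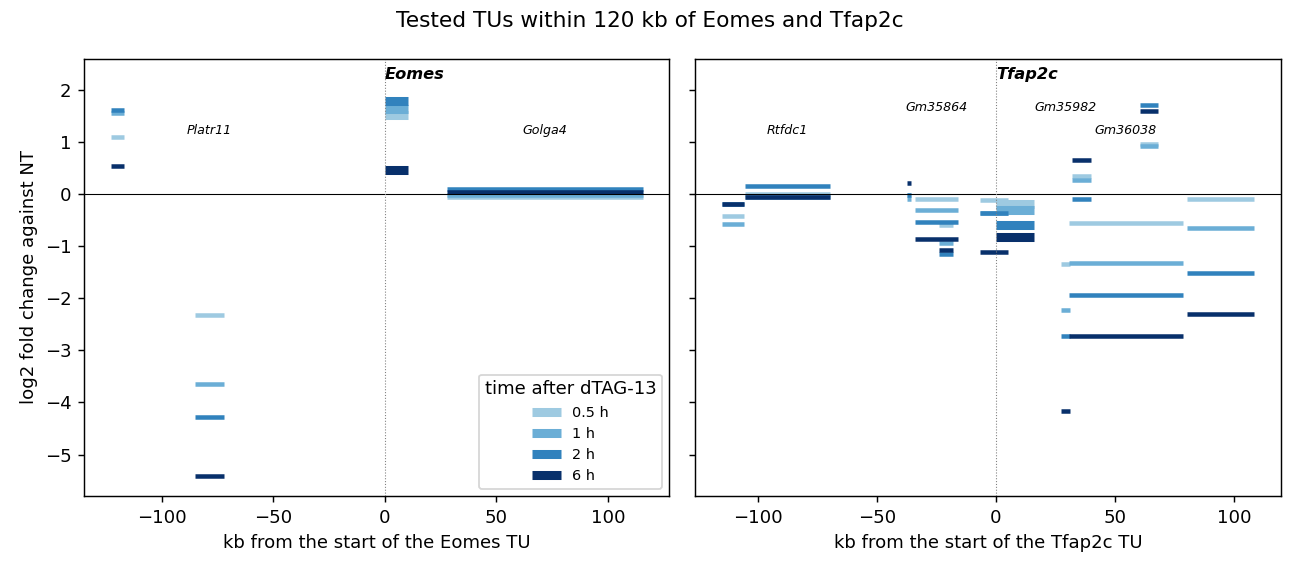
Log2 fold change against NT (y axis) of the tested TUs within 120 kb of Eomes (left) and Tfap2c (right), drawn from end to end by distance in kb from the start of that TU in its own direction (x axes), with thick bars for Eomes and Tfap2c and darker blue for later times. Platr11 falls on the far side of Eomes while Eomes rises, and Gm36038 and the plus-strand extragenic TU past Tfap2c lie below it from 1 h on, while the minus-strand extragenic TU rises to 1.60 at 6 h.

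The TUs whose log2 CPM ran most alike over the 10 libraries were sought among 11938 TUs with a gene symbol and a mean of at least 50 fragments. Eomes was most like Rab6b, Caskin2 and Wsb2 (Pearson's r 0.958, 0.954 and 0.953). Krt8 was most like Gm39918, Nip7 and Tspan2 (0.975, 0.973 and 0.970), and Tfap2c most like Mllt1, Aym1 and Adcy1 (0.991, 0.974 and 0.973). Krt8 and Tfap2c correlated with each other at 0.82, and with Eomes at -0.32 and -0.16. These values describe 10 points from the same libraries and carry no p. Over the 5 group means, none of the 3 nearest TUs was the same for any of these genes.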

How the data were processed

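Nascent RNA was measured by TT_chem_seq in 10 libraries of 5 groups. According to the methods of the study and the submitters' processing notes, BWA 0.7.17-r1188 placed the reads on mm10, SAMtools 1.10 kept those of sufficient mapping quality, Picard 2.12.0 took out duplicates, and the alignments were separated by strand. TUs were defined on pooled data with a hidden Markov model and associated with RefSeq genes. The counts deposited by the authors are whole fragments per TU and are not normalized. TU starts appear to be counted from 0 and may be 1 bp low. A gene without a TU is not shown to be silent.

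Counts were fitted in edgeR 4.0.16 (R 4.3.3) with TMM factors, 1 coefficient per group and all 10 libraries. The quasi-likelihood F-test ran on the 28459 TUs in which at least 2 libraries held over 10 fragments, with Benjamini-Hochberg adjustment over all of these. The SE is the size of the log2 fold change over the square root of F. CPM used TMM factors, and log2 CPM for likeness a prior count of 2. Totals of 11131490 to 25854106 fragments per library set the precision. Ratios of low counts have exact conditional binomial 95% intervals (SciPy 1.17.1). The procedure was tested on simulated data.

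The members and lists were chosen with earlier results of these data known. Named genes were all 7 members, the tested gene with the smallest p at 6 hpd in each direction of each list, the 3 most alike TUs and tested TUs within 10 kb. Other list members and TUs within 120 kb were named after their values were seen. Alternatives were DESeq2 1.42.0, RLE size factors, scaling by totals alone, testing all TUs, testing TUs that averaged at least 50 fragments, fitting the 2 compared groups alone, a block for the replicate number, leaving out each library, 5 group means for likeness, and only bases before the start for motifs.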

Additional observations from a re-analysis of the deposited data

Results flagged for a closer look

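For 3 results, the change against NT differed between time points by a direct test of that difference in edgeR. The log2 difference of Eomes was -1.33 from 2 to 6 hpd (adjusted p = 0.00316, not called without 6 hpd replicate 1) and -1.17 from 1 to 6 hpd (adjusted p = 0.00211). That of Tfap2c was -0.53 from 1 to 6 hpd (adjusted p = 0.0279, not called without either 1 hpd replicate or 6 hpd replicate 2). Groups of 2 libraries were too small for a test of outlying samples.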

How the results depend on the processing

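The 4 tested genes kept their direction against NT in all 108 values from settings other than leaving out a library, and their side of the threshold in 107. With the replicate number as a block, 3 of the 4 genes were lower at 6 hpd, Gata3 included (-1.07, adjusted p = 0.0298), and no other call of these genes against NT changed. With it, 4 other trophoblast genes were up at 0.5 hpd, 3, 2 and 5 epithelial genes up at 0.5, 2 and 6 hpd with 1 down at 2 and 6 hpd (Atp1b1 at 6 hpd), 2 and 5 primitive endoderm markers up at 0.5 and 6 hpd, and, at 0.5 hpd, 1 mesoderm marker down, 1 neural marker up, and 4 stem cell markers down and 1 up. The numbers were not taken to pair the libraries. Deviations of same-numbered libraries correlated at 0.0544 to 0.663 over the 10 pairs of groups, all positive, but not every pair passed 0.1. Whether same-numbered libraries share a batch was not tested. The block gave 524 TUs up and 596 down at 0.5 hpd (150 and 224 without it), 1441 and 1747 at 1 hpd (611 and 1026), 2713 and 2733 at 2 hpd (1213 and 1585), and 3394 and 4036 at 6 hpd (1880 and 2618). DESeq2 gave 1056 down at 2 hpd and 1719 at 6 hpd, and the fit of only the compared groups 1832 up at 1 hpd.

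With libraries left out in turn, 155 of 160 values of the 4 genes against NT kept direction and side, 4 lost a call and 1 reversed. Over all TUs, calls up then numbered 21 to 225, 204 to 972, 383 to 2060 and 749 to 2596 at 0.5, 1, 2 and 6 hpd, and calls down 61 to 286, 422 to 1142, 776 to 1670 and 1176 to 2866, so the shares of all TUs called depend on single libraries. The lowest of these counts were without NT replicate 2, except for calls down at 1 hpd (without 1 hpd replicate 1). Members called lower numbered 0 to 1 at 1 hpd, 1 to 2 at 2 hpd, 0 to 1 from 2 to 6 hpd and 1 to 2 from 1 to 6 hpd. Uncalled values that crossed 0 were those of Gata3 at 0.5 hpd (-0.70 to 0.11), from 1 to 2 hpd (-0.28 to 0.97) and from 1 to 6 hpd (-0.64 to 0.61), Eomes from 1 to 2 hpd (-0.011 to 0.29), Krt8 from 2 to 6 hpd (-0.25 to 0.21), and, at 6 hpd, Pax6 (-0.12 to 0.50) and Sox2 (-0.027 to 0.19). Golga4 ranged over -0.18 to 0.059, -0.034 to 0.0032, -0.11 to 0.25 and -0.0042 to 0.086 at 0.5, 1, 2 and 6 hpd, and the antisense TU at Tfap2c over -0.47 to 0.41, -0.71 to 0.18 and -0.72 to 0.16 at 0.5, 1 and 2 hpd.

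Scaling by totals moved the median of all TUs to -0.13, -0.16 and -0.13 at 1, 2 and 6 hpd, Sox2 at 6 hpd to -0.029 and Golga4 at 2 and 6 hpd to -0.035 and -0.056. Golga4 was 0.0024 at 1 hpd with RLE factors or DESeq2, and -0.018 at 6 hpd among TUs averaging at least 50 fragments. With the block, the antisense TU was called at 6 hpd (-1.11) and the TU 117 kb before Eomes at 2 hpd (adjusted p = 0.0315). The fit with the block also called Gm35982 at 0.5 hpd (-1.28, adjusted p = 0.0351). The motif counts held before the start, except TATAAA, then in 0 promoters. The causes were not tested. Gata3, Cdx2 and Krt18 held the fewest fragments among the genes with a TU, and a small change of these was not detectable.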

Other observations

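Most of the stem cell markers were called lower by 6 hpd. Of the 13, edgeR called 2, 5, 8 and 9 down after 0.5, 1, 2 and 6 h (0.787%, 3.61%, 5.57% and 9.2% of all TUs) and none up, where 1 was higher at an unadjusted p under 0.05 at 0.5 hpd and none later, and none by DESeq2. Without NT replicate 2, 1, 3, 2 and 5 were called down at these times. With only the libraries compared, 8 and 5 were down after 1 and 2 h, and 1 was up after 1 h. At 6 hpd, 4 of the 13 were not called, and 2 of these were above 0. Fgf4, which encodes the FGF ligand that supports trophoblast progenitors in the embryo, had the smallest p at 6 hpd (-1.42 ± 0.13, adjusted p = 4.76e-06), and its receptor gene Fgfr2 rose over the same time. Pou5f1, whose loss is also known to turn ESCs toward trophectoderm, fell to a log2 fold change of -0.62 ± 0.11 at 6 hpd (adjusted p = 0.00103). Sox2 had the smallest p among the higher ones (0.06 ± 0.11, adjusted p = 0.736, and -0.029 when scaled by totals). Of 9 neural markers, 3 had a TU and were tested. Zic2 fell at each time point, by 1.71 on the log2 scale at 6 hpd (SE 0.14, adjusted p = 1.55e-06), Nes fell from 1 hpd on (at 1 hpd not without NT replicate 1 or either 1 hpd replicate), and Pax6 was not called (0.14 ± 0.21 at 6 hpd, adjusted p = 0.686).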
